A study of Arabidopsis thaliana with 20 samples.

Results

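GH9B6 (AT1G23210) and GH9C2 (AT1G64390) encode glycosyl hydrolases of family 9 in Arabidopsis thaliana, and their transcripts were followed along the growing flowering stem. Each gene had 1 probe on the array under the platform annotation, so they are 2 of the 7914 named genes, and 2 of the 25739 probes, with a value. Both probes were measured on all 20 arrays. The genes were picked with their log ratios on these arrays already known. Their own values are therefore given as a description, without a test.

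Family 9 glycosyl hydrolases of plants are endo-1,4-beta-glucanases, enzymes that cut within chains of beta-1,4-linked glucose such as cellulose. Plants use them to remodel or trim the glucan network of the wall while cells form, enlarge and separate. The family has 3 classes. Class A proteins are anchored in a membrane, and the class A enzyme KORRIGAN1 is needed for normal cellulose synthesis. Class B proteins, such as GH9B6, are secreted and consist of the catalytic domain. Class C proteins, such as GH9C2, are secreted and carry in addition a carbohydrate-binding module at the C-terminal end. In an inflorescence stem, elongation takes place in the upper part, and the tissue further down has stopped elongating and thickens its walls.

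Plants of the Ler accession were kept in 8 h days and then transferred to 16 h days. Stems of about 5 cm were taken on day 12 after the transfer and stems of about 10 cm on day 14, and flowers, siliques, leaves and side branches were discarded. Distances are counted from the tip: 10 cm stems were cut into 0-3, 3-5, 5-7 and 7-9 cm sections, and 5 cm stems into 0-2 and 2-4 cm sections. Labelled cDNA of each section was hybridised together with cDNA of the 0-2 cm section of 5 cm stems, the common reference, on 4 arrays per section, 2 with the section in Cy5 and 2 with it in Cy3. All groups are thus wild-type stem pieces that differ in position, stem length and harvest day. The sources do not say how many plants went into an extract or whether the 4 arrays used separate plants, so the spread between arrays may be technical. No array measured the reference on its own, and its spread is left out of every ratio to it.

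Values are log2 ratios of section over reference, with the deposited log base taken as 2, so that a value below 0 means less signal than in the reference; percentages of the reference below are these ratios on a linear scale. A log ratio in whole sections cannot tell fewer cells of a type from less RNA per cell. Over all tested probes, pairs of 0-3 cm arrays correlated by -0.211 to 0.551 and pairs of 2-4 cm arrays by 0.131 to 0.578, and in the 3 lower sections the range was 0.572 to 0.869. Replicate 1 of 0-3 cm stood apart from its group (r of -0.211 to 0.48 with the other 3 arrays), and values for 0-3 cm are also given without it where it moved them. The source name of 3-5 cm replicate 1 gives a 5 cm stem, and its title was followed. Photomultiplier settings were shared by 0-3 cm and replicates 1 and 2 of 5-7 and 7-9 cm (62 for Cy3 and 60 for Cy5), whereas replicates 3 and 4 of 5-7 and 7-9 cm had 63 and 60. All 2-4 cm arrays shared 1 further setting and all 3-5 cm arrays another, so for these sections setting and position cannot be told apart. Laser power was 95% on 0-3 cm replicate 2 and 90% on the other arrays.

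GH9B6 transcript was near the reference in the uppermost 3 cm of 10 cm stems and lower in every other section. In the 0-3 cm section the log2 ratios of replicates 1 to 4 were 0.48, -0.29, -0.20 and -0.29, with a mean of -0.075 ± 0.371 (SD, n = 4). Only replicate 1 was above 0, and without it the mean was -0.26. In the 2-4 cm section of 5 cm stems the ratios were -0.58, -0.76, -0.17 and -0.55, all below 0 (as for 16.9% of all tested probes in that section, against 10.4% at 0-3 cm), with a mean of -0.515 ± 0.248 (SD, n = 4). These arrays overlapped those of 0-3 cm, and 1.98% of tested probes were lower at 2-4 cm without overlap.

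Below 3 cm in 10 cm stems GH9B6 was at 41.3% of the reference or less. The 3-5 cm arrays gave -1.31, -1.04, -1.46 and -1.30, a mean of -1.27 ± 0.175 (SD, n = 4). No 3-5 cm array overlapped any of the 0-3 or 2-4 cm sections, and the log2 differences of the means were -1.20 and -0.759, or 2.30-fold and 1.69-fold lower. The first was -1.015 without replicate 1 of 0-3 cm. Of all tested probes, 10.3% and 10.1% lay lower in the 3-5 cm section without overlap with 0-3 and 2-4 cm.

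In the 5-7 cm section the GH9B6 ratios were -1.67, -1.70, -0.76 and -1.09, with a mean of -1.305 ± 0.46 (SD, n = 4). Replicate 3 was the highest array, and replicates 1 and 2, scanned at the other setting, were both lower than replicates 3 and 4. The mean within the setting 62 and 60 was -1.685 and within 63 and 60 it was -0.925. The 7-9 cm arrays gave -1.66, -1.79, -1.70 and -1.58, the tightest group for this gene, with a mean of -1.68 ± 0.088 (SD, n = 4), or 31.2% of the reference. The means within the 2 settings were -1.72 and -1.64. Of all tested probes, 2.19% had a mean as low in the 7-9 cm section. The 7-9 cm arrays lay below every 0-3 cm array (9.09% of tested probes) and every 2-4 cm array (9.87%), and the 5-7 cm arrays lay below every 0-3 cm array (8.27%) but overlapped those of 2-4 cm.

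By mean ratio the order for GH9B6 was 0-3 cm, 2-4 cm, 3-5 cm, 5-7 cm and 7-9 cm from high to low, which is also the order of distance from the tip. Arrays of neighbours in that order overlapped for 0-3 and 2-4 cm, for 3-5 and 5-7 cm and for 5-7 and 7-9 cm. They did not overlap for 2-4 and 3-5 cm. Between 3-5 and 5-7 cm 6.89% of tested probes were lower without overlap, and between 5-7 and 7-9 cm 0.933% were. The 7-9 cm arrays also lay below all 3-5 cm arrays (difference -0.407, where 7.78% of tested probes were lower without overlap). Between 5-7 and 7-9 cm the mean difference was -0.377, and it was -0.039 within the setting 62 and 60 and -0.714 within 63 and 60, so that its size differed between settings.

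GH9C2 stayed at the reference level in the 2-4 cm section and was lower from 3 cm down. Its 2-4 cm ratios were -0.13, -0.04, -0.06 and -0.09, with a mean of -0.079 ± 0.04 (SD, n = 4), the narrowest spread of either gene in any section. All 4 arrays were below 0, but by no more than 0.132. The 0-3 cm ratios were -1.20, -0.29, 0.30 and -0.08, with a mean of -0.318 ± 0.637 (SD, n = 4). Both arrays with the section in Cy5 (mean -0.745) were lower than both with it in Cy3 (mean 0.109), and the part of the dye in this spread was not tested. Without replicate 1 the mean was -0.024.

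In the 3-5 cm section the GH9C2 ratios were -1.15, -0.92, -1.10 and -1.07, with a mean of -1.06 ± 0.097 (SD, n = 4), or 48% of the reference. They lay below all 2-4 cm arrays (as for 10.1% of tested probes), with a difference of -0.981, or 1.97-fold. They did not lie below all 0-3 cm arrays, because replicate 1 of that section was at -1.20. The difference from 0-3 cm was -0.742 with all arrays and -1.04 without that replicate.

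The 5-7 cm ratios of GH9C2 were -1.53, -1.30, -0.80 and -1.48, with a mean of -1.275 ± 0.333 (SD, n = 4). Replicate 3 was again the highest array, as for GH9B6, and this array had the lowest correlations with the rest of its group (0.572 to 0.674 over probes). Without it the 5-7 cm mean was -1.435 for GH9C2 and -1.49 for GH9B6. The 7-9 cm ratios were -1.40, -1.78, -1.10 and -1.59, with a mean of -1.465 ± 0.288 (SD, n = 4), or 36.2% of the reference. Within the setting 62 and 60 the GH9C2 means were -1.41 at 5-7 cm and -1.59 at 7-9 cm, and within 63 and 60 they were -1.14 and -1.345.

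From high to low the order for GH9C2 was 2-4 cm, 0-3 cm, 3-5 cm, 5-7 cm and 7-9 cm. Arrays of every pair of neighbours in that order overlapped. Both statements rest on 0-3 cm replicate 1: without it the 0-3 cm mean of -0.024 lay above that of 2-4 cm (-0.079), and the 0-3 cm arrays (-0.29 to 0.30) no longer overlapped those of 3-5 cm (-1.15 to -0.92). Arrays of 2-4 cm did not overlap those of 3-5, 5-7 or 7-9 cm, and 3-5 cm overlapped 7-9 cm. Lower than 2-4 cm without overlap were 10.1% of tested probes at 3-5 cm, 8.83% at 5-7 cm and 9.87% at 7-9 cm. For 3-5 against 0-3 cm the share was 10.3% with all arrays, and it was not counted without replicate 1. The means of 3-5 and 5-7 cm differed by -0.215 and those of 5-7 and 7-9 cm by -0.19, each below the pooled SD of the arrays (0.246 and 0.312).

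On all 12 arrays of the 3 lower sections both genes were below 0. This held for 12.9% of all tested probes (26.7%, 22.7% and 23.8% in the 3-5, 5-7 and 7-9 cm sections taken singly), and nothing is read from it, since the genes were chosen from these arrays.

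**Figure D1:**
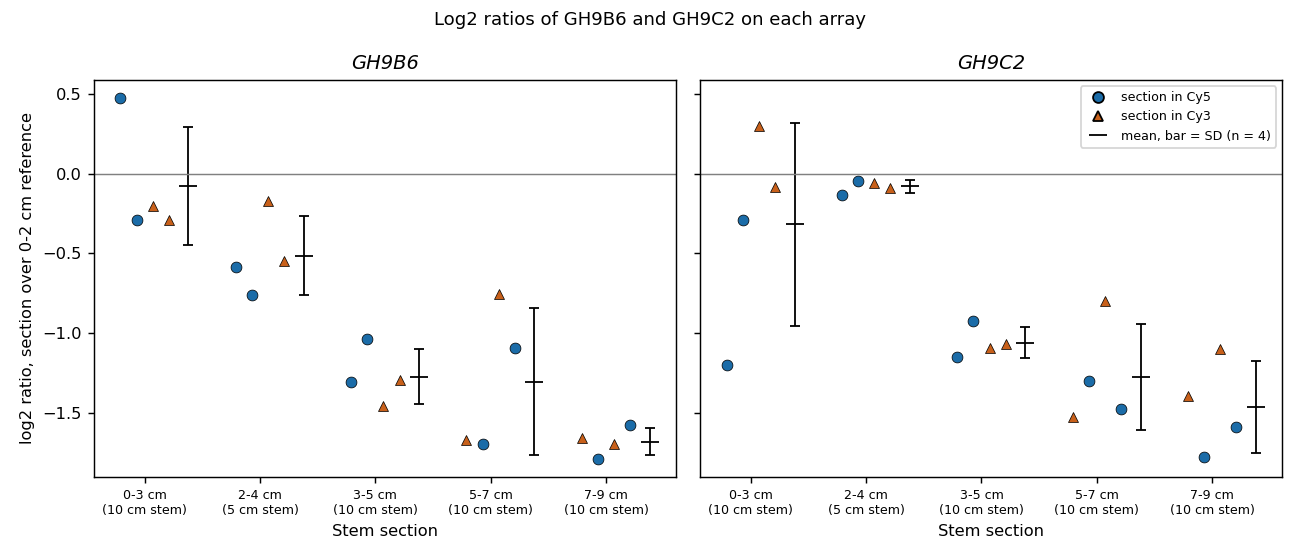
Log2 ratio of section over the 0-2 cm reference (vertical axis) for GH9B6 (left) and GH9C2 (right) on each array, by section (horizontal axis); circles are arrays with the section in Cy5, triangles those with it in Cy3, and horizontal marks with bars are the mean and SD of 4 arrays. From 3-5 cm down all points of both genes lie below -0.7, whereas at 2-4 cm GH9C2 lies between -0.132 and -0.042 and GH9B6 between -0.76 and -0.17.

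At 2-4 cm the log2 ratio of GH9B6 was below that of GH9C2 on 4 of 4 arrays, with differences from -0.718 to -0.113 and a mean difference of -0.436 ± 0.248 (SD, n = 4). At 3-5 cm GH9B6 was also the lower on 4 of 4 arrays, with a mean difference of -0.214 ± 0.109. At 5-7 cm it was the lower on 2 of 4 arrays and at 7-9 cm on 3 of 4, with mean differences of -0.03 ± 0.329 and -0.216 ± 0.284. At 0-3 cm the difference ran from -0.50 to 1.68, the last on replicate 1, where GH9B6 had its highest and GH9C2 its lowest value in that section. The mean difference there was 0.243 ± 0.978 (SD, n = 4) with that array and -0.235 ± 0.252 (SD, n = 3) without it. These are differences between 2 changes from the reference, and each probe may compress its ratio in its own way, so they do not compare transcript levels.

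Over the 20 arrays the log2 ratios of GH9B6 and GH9C2 had a Pearson r of 0.707. Deviations of single arrays from their section means had an r of -0.152. Both values rest on 0-3 cm replicate 1, and over the other 19 arrays they were 0.915 and 0.475. Of 8036 other named probes with a value on all arrays, 346 (4.31%) had a higher r with GH9B6, and 344 (4.28%) had a higher r with GH9C2. Without that array the numbers were 6 (0.0747%) and 18 (0.224%). All these correlations share the same 20 arrays and the same reference RNA, and are descriptions.

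**Figure D2:**
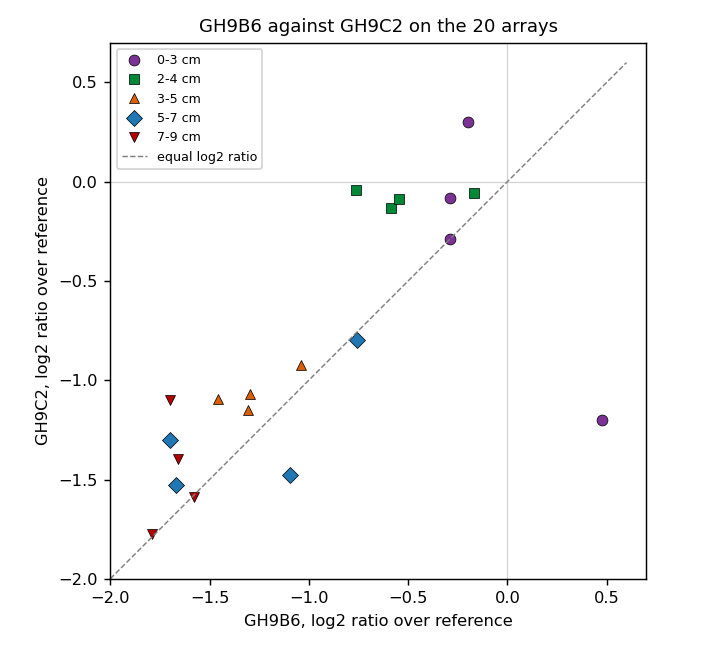
Log2 ratio of GH9C2 (vertical axis) against GH9B6 (horizontal axis) on the 20 arrays, 1 symbol per section; the dashed line marks equal log2 ratios. The 12 arrays of the 3 lower sections lie at the lower left, the 2-4 cm arrays lie above the dashed line, and the 0-3 cm array at the lower right is replicate 1.

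The genes most like GH9B6 over the 20 arrays were AT1G12570 (r = 0.944), AT1G63290 (r = 0.937), a ribulose-phosphate epimerase family gene, HCF101 (r = 0.930), which encodes an iron-sulphur protein needed for photosystem I assembly, AT2G19940 (r = 0.911) and AT3G05900 (r = 0.909). Without 0-3 cm replicate 1, 3 of these 5 were still among the 5 most alike. AT1G12570 had section means of 0.14, -0.64, -2.81, -3.16 and -3.68 from 0-3 to 7-9 cm in the order given above. It followed GH9B6 in order but fell further in the 3 lower sections. Its probe carries the spot number next to that of GH9B6. Of 22498 pairs of probes with adjacent spot numbers, 4 had an r at least as high, this pair included, and the median r was 0.138. Where the second spot varied at least as much as AT1G12570 (SD over arrays of 1.72 or more, 39 pairs), the median r was 0.146. The probe on the other side of GH9B6 had an r of 0.102 with it, and the next one beyond had 0.273. AT1G04700, the next probe beyond AT1G12570, had an r of 0.719 with GH9B6. Its section means were -0.04, 0.05, -0.48, -0.96 and -1.07 from 0-3 to 7-9 cm. Over all pairs the median r was 0.115 at a distance of 2 spot numbers and 0.0664 at 600. The part of spot position in the GH9B6 ratios was not tested.

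The genes most like GH9C2 were LrgB (AT1G32080; r = 0.936), the plastid glycolate and glycerate transporter of photorespiration, AT5G52970 (r = 0.925), a thylakoid lumen protein gene, AT1G49980 (r = 0.913), AT2G43560 (r = 0.907), an FKBP-type peptidyl-prolyl isomerase gene, and BZIP34 (AT2G42380; r = 0.903), a transcription factor gene. Again 3 of the 5 were among the 5 most alike without 0-3 cm replicate 1. At 7-9 cm their mean log2 ratios were -2.26, -2.16, -1.47, -1.79 and -1.18, beside -1.465 for GH9C2. The probe next to GH9C2 on one side, AT1G72100, had an r of -0.391 and the unnamed one on the other side an r of 0.589.

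**Figure D3:**
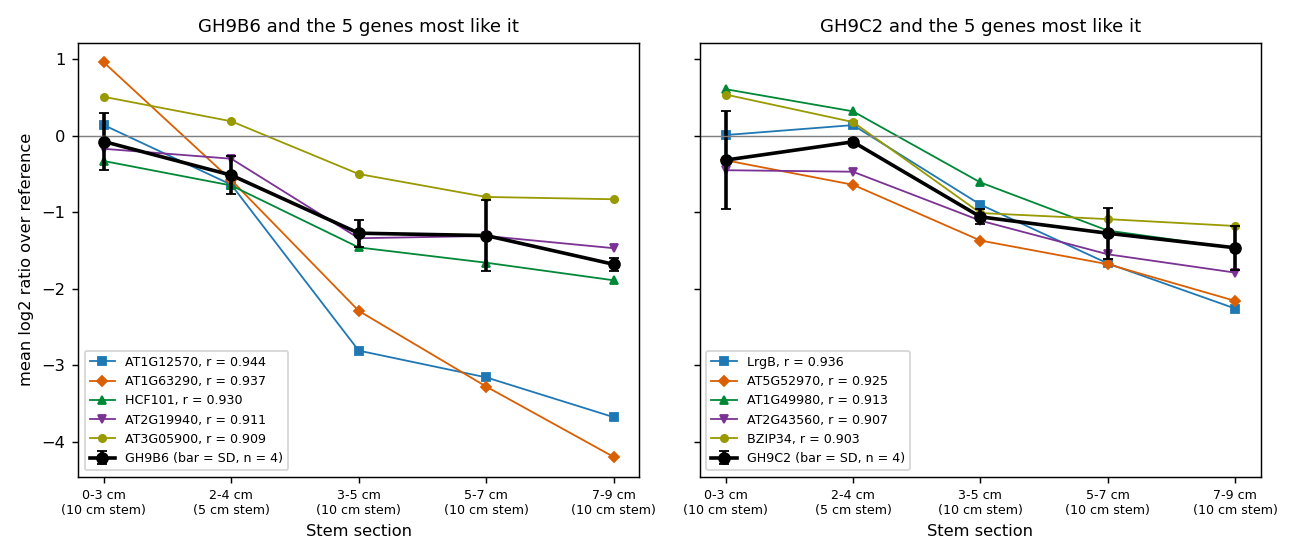
Mean log2 ratio over the reference (vertical axis) by section (horizontal axis) for each of the 2 genes (black, bars are SD of 4 arrays) and the 5 named genes with the highest Pearson r over the 20 arrays (coloured lines). AT1G12570 and AT1G63290 reach -3.68 and -4.20 at 7-9 cm, where GH9B6 is at -1.68.

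The family has 25 genes on the list used here, and 10 of them had a named probe that passed the filter: the 2 above, 7 others of class B and GH9C1. No class A gene had one. The other 8 were taken by family membership, from a list drawn up with earlier results of these data known. They were tested with limma over all 25720 tested probes. They did not share 1 course along the stem. At 0-3 cm 1 of the 8 was higher and 0 lower, where 3.47% of all probes were called (2.18% higher, 1.29% lower). At 2-4 cm 2 were higher and 0 lower, where 13.5% were called (6.63% higher, 6.89% lower). At 3-5 cm 2 were higher and 2 lower, where 40.1% were called (19.9% higher, 20.2% lower). At 5-7 cm 1 was higher and 2 lower, where 40% were called (19.7% higher, 20.2% lower), and at 7-9 cm again 1 was higher and 2 lower, where 43.4% were called (21.7% in each direction). Without replicate 4, or without the 3 arrays of conflicting dye labels, 2 were higher and 1 lower at 5-7 cm, and with the 7-9 cm arrays alone 2 were higher and 1 lower there. The count at 0-3 cm was 0 without a dye term and 0 without replicate 1, 3 or 4, and 3 with the 0-3 cm arrays alone. The count at 2-4 cm was 1 without replicate 3 and with the 2-4 cm arrays alone, and that at 3-5 cm was 2 with centring and scaling of the arrays. The median of the 8 was 0.11, -0.087, 0.032, 0.16 and 0.059 from 0-3 to 7-9 cm, where that of all tested probes lay between -0.017 and 0.016.

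GH9B8 (AT2G32990), a class B glucanase gene, was lower than the reference in the 3 lower sections and in neither of the upper ones. Its 3-5 cm arrays ran from -1.85 to -1.09, with a fitted log2 ratio of -1.57 ± 0.278 (SE, n = 4 arrays; limma, adjusted p = 9.84e-05). All 4 arrays lay below those of 0-3 cm (-0.42 to 0.511), and it fell by 1.55 ± 0.393 between these sections (limma, adjusted p = 0.00882, where 17% of probes were called, 8.67% higher and 8.35% lower). It was the 1 gene of the 8 called between these sections, and without 0-3 cm replicate 1 the difference was -1.39 (limma, adjusted p = 0.0348). It was also lower at 5-7 cm (-0.908 ± 0.278, limma adjusted p = 0.0123) and 7-9 cm (-1.25 ± 0.278, limma adjusted p = 0.000951). The 5-7 cm call ended without replicate 1 (adjusted p = 0.094), and the 7-9 cm call ended with the 7-9 cm arrays alone (adjusted p = 0.0603), where arrays were spread from -2.77 to -0.181. In both sections replicates 1 and 2, at setting 62 and 60, lay below replicates 3 and 4, at 63 and 60. Replicates 1 to 4 read -1.51, -0.90, -0.62 and -0.60 at 5-7 cm, and -1.44, -2.77, -0.60 and -0.18 at 7-9 cm. Both calls held with scanner setting as a block, and the cause of the split was not tested.

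GH9B7 (AT1G75680), also of class B, went the other way. It was higher than the reference in all 5 sections, and its 20 arrays were all above 0. The share of all tested probes above 0 on all 20 arrays was not counted. The 2-4 cm arrays read 1.04, 1.33, 0.802 and 0.482, with a fitted log2 ratio of 0.912 ± 0.124 (SE, n = 4 arrays; limma, adjusted p = 4.05e-05). At 3-5 cm it was 0.749 ± 0.124 (limma, adjusted p = 4.44e-05) and at 7-9 cm 0.457 ± 0.124 (limma, adjusted p = 0.00468), with arrays from 0.393 to 0.524. The call at 0-3 cm (0.495 ± 0.124, limma adjusted p = 0.0264) ended without a dye term and without replicate 1, 3 or 4, with an adjusted p of at most 0.0968. That at 5-7 cm (0.407 ± 0.124, limma adjusted p = 0.0117) ended without replicate 2 or 3 and with the compared arrays alone, with an adjusted p of at most 0.0808.

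GH9B9, GH9B10, GH9B11 and GH9B12 (AT2G44540 to AT2G44570) neighbour each other on chromosome 2, and cross-hybridisation between them was not tested. GH9B10 was lower at 3-5, 5-7 and 7-9 cm, by -0.426 ± 0.147, -0.464 ± 0.147 and -0.506 ± 0.147 (limma, adjusted p = 0.0243, 0.0151 and 0.00786). All 3 calls ended with centring and scaling of the arrays, where the adjusted p was 0.0745, 0.0529 and 0.0585. Those at 5-7 and 7-9 cm also ended without the 3 arrays whose labels give conflicting dyes. With the arrays of the section alone the 3-5 and 5-7 cm calls ended too (adjusted p = 0.103 and 0.07). The 3-5 cm call ended as well without a dye term and without replicate 1 or 4, and the 5-7 cm call without replicate 4. GH9B11 was higher at 2-4 cm (arrays 0.272 to 1.78, fitted 1.07 ± 0.257, limma adjusted p = 0.00772), a call that ended without replicate 3 (adjusted p = 0.0939) and with the 2-4 cm arrays alone (0.0609). At 0-3 cm it passed with the 0-3 cm arrays alone (adjusted p = 0.0123). It was at -0.592 ± 0.257 at 7-9 cm, which did not pass (limma, adjusted p = 0.068) but did without replicate 1 (adjusted p = 0.0203). GH9B9 and GH9B12 passed in no section, with limma adjusted p of at least 0.109 and 0.257, although GH9B9 did at 5-7 cm without replicate 4 and without the 3 arrays of conflicting dye labels.

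GH9B5 (AT1G19940) was higher at 3-5 cm (arrays 1.09 to 1.60, fitted 1.33 ± 0.367, limma adjusted p = 0.0058), a call that ended with centring and scaling (adjusted p = 0.0605). At 2-4 cm its arrays ran from -1.73 to 3.23, and the ratio of 0.841 ± 0.367 did not pass (adjusted p = 0.144). It did so without replicate 2, the lowest array (1.59, adjusted p = 0.00138), and with array weights (adjusted p = 0.0162). With the arrays of the section alone GH9B5 also passed at 0-3, 5-7 and 7-9 cm (adjusted p = 0.00465, 0.0084 and 0.0148). GH9C1 (AT1G48930), the other class C gene with a tested probe, passed in no section, with means between -0.184 and 0.32. Between 3-5 and 5-7 cm limma called 0 of the 8 genes (5.9% of all probes, 2.43% higher and 3.47% lower), and between 5-7 and 7-9 cm also 0 (0.00389% of all probes). At an unadjusted p under 0.05 both counts were again 0.

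**Figure D4:**
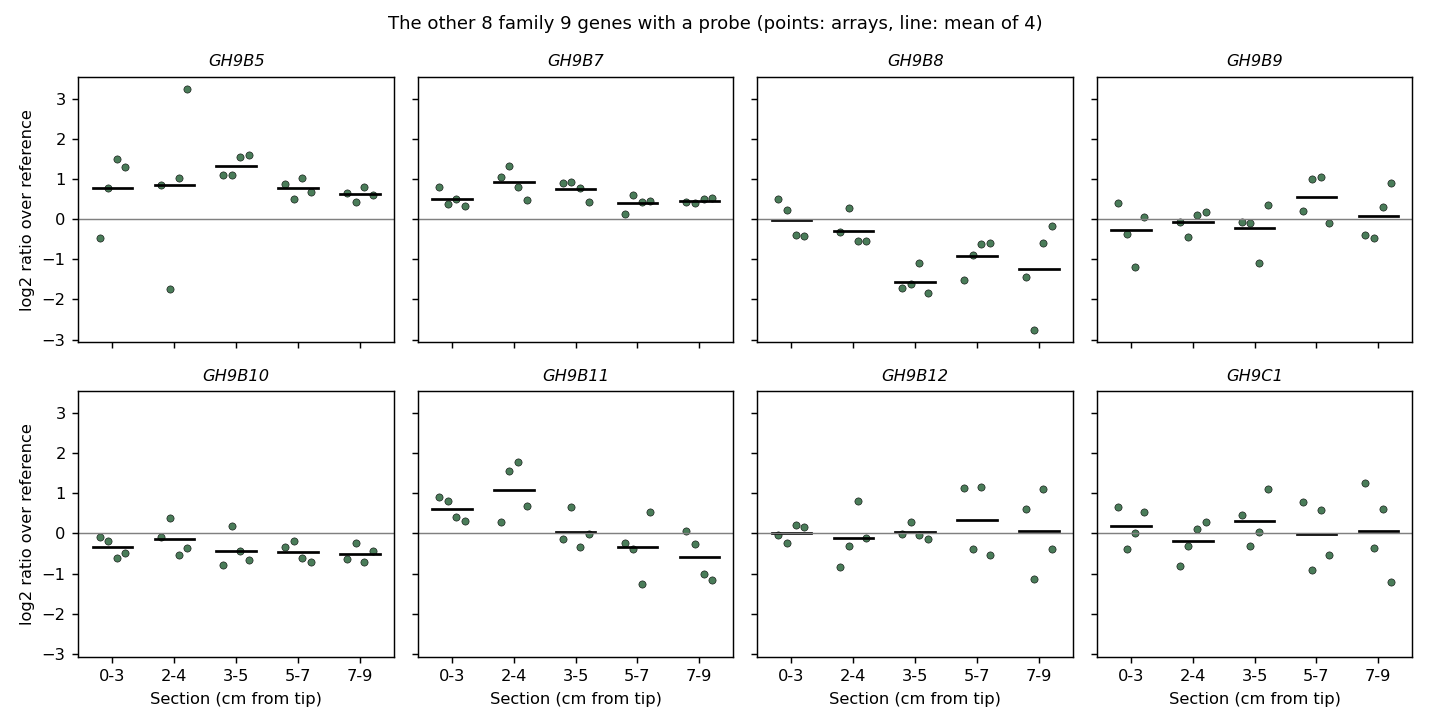
Log2 ratio over the reference (vertical axis) by section in cm from the tip (horizontal axis) for the other 8 family 9 genes with a tested probe; points are arrays and lines are means of 4. GH9B7 lies above 0 on all 20 arrays, GH9B8 lies below 0 on all 12 arrays of the 3 lower sections, and GH9B5 at 2-4 cm is spread from -1.73 to 3.23.

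Other genes of cellulose synthesis had little coverage. Of 15 listed, COB (AT5G60920) had a tested probe. It encodes COBRA, a cell-surface protein needed for oriented cell expansion and cellulose deposition, and is named outside the naming rule as the single measured member. It passed in no section, with log2 ratios from 0.019 ± 0.193 at 7-9 cm to 0.251 ± 0.193 at 5-7 cm (SE, n = 4; limma, adjusted p of at least 0.328). Of 16 secondary wall and xylem markers, GUT2, a xylan synthesis gene, was the 1 measured, at -0.37 ± 0.233 to 0.078 ± 0.233 (limma, adjusted p of at least 0.454), and it too is named outside the rule. None of 12 floral and shoot meristem markers had a tested probe, so the tissue of a section could not be checked on them.

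Of 13 cell division markers listed, 3 had a probe: AUR2, an Aurora kinase, TOPII, topoisomerase II, and PRL, the replication licensing factor MCM7. All 3 were lower at 3-5 cm, where 20.2% of all probes were called lower, with log2 ratios of -1.86 ± 0.184, -2.08 ± 0.301 and -1.595 ± 0.288 (SE, n = 4; limma, adjusted p at most 0.000123). Between 0-3 and 3-5 cm, where 8.35% of all probes were called lower, 2 of the 3 were, AUR2 with a log2 difference of -0.966 ± 0.26 and TOPII with -1.86 ± 0.425 (limma, adjusted p = 0.013 and 0.00424). Without 0-3 cm replicate 1 these were -1.07 ± 0.28 and -1.58 ± 0.451 (limma, adjusted p = 0.0134 and 0.0219). AUR2 was already lower at 0-3 cm (-0.897 ± 0.184, limma adjusted p = 0.00693, and 0.0487 without replicate 1) and at 2-4 cm (-0.95 ± 0.184, limma adjusted p = 0.00144). Of all probes, 1.29% and 6.89% were called lower in these 2 sections. At 5-7 and 7-9 cm, where 20.2% and 21.7% of all probes were called lower, AUR2 was at -1.77 ± 0.184 and -2.04 ± 0.184 (limma, adjusted p = 1.3e-07 and 1.44e-08). PRL was at -1.64 ± 0.288 and -1.855 ± 0.288 (limma, adjusted p = 9.69e-05 and 2.03e-05), with 5-7 cm arrays from -2.67 to -0.191. TOPII did not pass at 5-7 cm (-0.692 ± 0.301, limma adjusted p = 0.0731), and at 7-9 cm it passed with arrays spread from -2.41 to 0.2 (-0.781 ± 0.301, limma adjusted p = 0.0404). In both sections its replicates 1 and 2, at setting 62 and 60, lay below replicates 3 and 4, at 63 and 60. PRL split the same way at 5-7 cm but not at 7-9 cm, and for AUR2 the settings overlapped in both sections. The part of the setting in these splits was not tested. The part of dividing tissue in the ratios of GH9B6 and GH9C2 was not tested.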

How the data were processed

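The deposited values are log2 ratios (log base taken as 2) of section over reference, 1 column for each of 20 spotted 2-colour arrays. Per the labels, the authors scanned them with a ScanArray Express scanner. How background was corrected and how arrays were normalized is not given in the sources used here, and which centring or scaling the authors applied is unknown. Array medians lay between -0.033 and 0.038, and 3 arrays (0-3 cm replicate 3, 5-7 cm replicate 2, 7-9 cm replicate 3) hold values in steps of 0.1. Direction was taken from the titles. Arrays of the same dye orientation, over all sections, correlated by at least 0.234. Arrays of opposite orientation within a section correlated by -0.211 for 0-3 cm replicates 1 and 3 and by at least 0.131 in the other sections. For 3 arrays (5-7 cm replicate 4, 7-9 cm replicates 2 and 4) source name and description give different dyes, and the source name was used. No spot intensity was used, so how far a probe lay above background is unknown. The number of arrays limits the precision.

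Probes with a value on at least 3 of 4 arrays of each section were tested (25720 of 25739). Names come from the platform annotation (8338 probes with 1 gene, 181 with several, which were not named), of which 8302 matched the RefSeq table of assembly TAIR10.1, used for names and neighbours only. limma 3.58.1 in R 4.3.3 fitted a mean per section and a dye term with eBayes (20 arrays, residual degrees of freedom 14), with Benjamini-Hochberg adjustment over all tested probes and a threshold of 0.05. The script was tested on simulated data.

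The genes and lists were chosen with earlier results of these data known. Named are both genes, the measured family 9 genes, up to 4 called genes of each other list by size of change, and the 5 loci with the highest Pearson r to each gene. Alternatives were median centring, centring and scaling, removal of local spot trends, no dye term, replicate number or scanner setting as a block, array weights, other choices of arrays or probes, the median for the mean, and leaving out each array. The comparison of GH9B6 and GH9C2 between 3-5 and 2-4 cm, and further values without 0-3 cm replicate 1, were chosen after seeing the data.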

Additional observations from a re-analysis of the deposited data

Results flagged for a closer look

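Among 75 sets of 4 arrays (15 genes in 5 sections), 3 held 1 array far from the other 3 by Dixon's criterion, where chance gives about 1 in 20 (5%). The first was GH9B6 on 0-3 cm replicate 1, at 0.478 against -0.290 to -0.200 on the others. The second was AUR2 on 5-7 cm replicate 1, at -2.210 against -1.637 to -1.600. The third was TOPII on 2-4 cm replicate 1, at -1.242 against -0.261 to -0.164.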

How the results depend on the processing

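Means of GH9B6 and GH9C2 over the reference moved by less than the SD of their arrays in 91 of 92 alternatives. Much of this count was fixed beforehand. Leaving out 1 of 4 arrays, taking the median, or keeping the arrays of 1 scanner setting cannot move a mean by that SD. The exception was GH9B6 at 7-9 cm with centring and scaling, at -1.371. Of 104 alternatives for differences between sections, 100 moved by less than the pooled SD, which leaving out 1 array cannot exceed. The others were GH9B6 between 5-7 and 7-9 cm (-0.039 within scanner setting 62 and 60, -0.714 within 63 and 60) and, with centring and scaling, 3-5 against 2-4 cm (-0.478 for GH9B6, -0.864 for GH9C2). Family 9 calls at 0-3 cm (main count 1) were 0 with no dye term and 3 with the compared arrays alone, and ran from 0 to 1 over single left-out arrays. At 2-4 cm (main 2) they were 1 with the compared arrays alone and 1 to 2 over left-out arrays. At 3-5 cm (main 4) they were 2 with centring and scaling. The other 112 totals stayed within 1.5 times, and COB was called in none of 67.

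No pairing by replicate number was seen in the values: residuals of same-numbered arrays had a median r of -0.0671 (9 of 40 pairs over 0.1), and 3 of 20 arrays correlated best with their own number. These values cannot tell whether same-numbered arrays shared plants or RNA. With the replicate block the family 9 counts were 1, 2, 4, 3 and 3 from 0-3 to 7-9 cm, as without it. Calls over all probes at 0-3 cm (892) ran from 336 to 941 over left-out arrays and were 1986 with the compared arrays alone, 1877 with array weights and 2822 after centring and scaling. At 2-4 cm (3478) they ran from 1994 to 2739, and were 5273 with array weights and 6202 after centring and scaling. With centring and scaling they were 2508 (main 4378) between 0-3 and 3-5 cm and 769 (main 1517) between 3-5 and 5-7 cm, where left-out arrays gave 980 to 1764. Between 5-7 and 7-9 cm (main 1) they were 0 to 4. At 7-9 cm (main 11163) they were 7006 without the 3 arrays of conflicting dye labels. The cause of these shifts was not tested.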

Other observations

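In several family 9 genes the arrays of a section split by dye. GH9B5 read higher with the section in Cy3 than in Cy5, without overlap, in all 5 sections, with means of 2.12 and -0.441 at 2-4 cm and of 0.723 and 0.512 at 7-9 cm. GH9B12 did so in 4 sections, the exception being 3-5 cm (-0.082 in Cy3, 0.135 in Cy5). Its Cy3 and Cy5 means were 0.186 and -0.143 at 0-3 cm, 0.351 and -0.569 at 2-4 cm, 1.15 and -0.473 at 5-7 cm, and 0.858 and -0.757 at 7-9 cm. GH9C1 split the same way at 2-4 cm (0.195 and -0.563), 5-7 cm (0.674 and -0.715) and 7-9 cm (0.929 and -0.794), and overlapped at 0-3 and 3-5 cm. GH9B9 also did at 2-4 cm. GH9B7 split the other way, with Cy3 and Cy5 means of 0.642 and 1.18 at 2-4 cm, 0.587 and 0.911 at 3-5 cm, and 0.282 and 0.531 at 5-7 cm. GH9B10 was likewise higher in Cy5 at 0-3, 2-4 and 7-9 cm, GH9B8 at 0-3 and 2-4 cm, and GH9B11 at 0-3 cm. With 2 arrays per dye a split in 1 section arises often by chance. This remark does not cover GH9B5, which split in the same direction in all 5 sections. The share of such splits over all probes was not counted, and the part of the dye in them was not tested. The dyes are those of the source names, and 3 of the 4 Cy5 arrays at 5-7 and 7-9 cm are the ones whose descriptions give Cy3. At 7-9 cm the means of GH9B6 were -1.68 with either dye, and those of GH9C2 were -1.25 in Cy3 and -1.68 in Cy5.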
